A study of Mus musculus with 4 samples.

Results

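Cycling basal cells are the dividing cells of the outer, myoepithelial layer of the mammary epithelium. They were chosen by which of 28 genes had a count in each cell of the deposited single-cell tables, so the levels of those genes are no result here. A cell was basal when it had a count for at least 4 of 7 basal genes (Krt5, Krt17, Acta2, Myl9, Tagln, Mylk and Cnn1), for at most 1 of 5 luminal progenitor genes (Cd14, Lalba, Plb1, Atp6v1b1 and Aldh1a3) and for at most 1 of 6 mature luminal genes (Stc2, Upk3a, Plac8, Tspan1, Prlr and Cited1). Cycling basal cells also had counts for 3 or more of Mki67, Top2a, Birc5, Cdk1, Ccnb2, Cenpf, Ube2c, Tpx2, Nusap1 and Pbk, which are 10 genes of division. This gave 312 cycling cells among 3357 basal cells and 10596 cells in all. The comparison group was the 2766 basal cells with 0 of the 10 genes, called non-cycling here.

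The cells were total epithelium (Lin–CD24+) of untreated FVB/NJ mice, profiled by droplet RNA sequencing. Puberty was sampled at 5 weeks of age (6 mice in the study's description), and adults of 10 weeks were sampled in estrus and in diestrus, with the glands of 2 mice pooled for each phase after staging by vaginal cytology. Each stage had 1 library, so stage and library cannot be told apart and no stage difference was tested. The libraries held 10962454 to 25365324 counts, with medians of 3236 to 4103 counts per cell. A second puberty table shared 5387 barcodes with the first, 99.2% of them, and was left out. The 3 libraries used shared at most 24 barcodes by pair and no cycling basal barcode.

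Basal cells contract to eject milk, anchor the duct to the basement membrane and include cells with regenerative capacity on transplantation. A dividing cell copies its DNA in S phase, when replication factors and nucleotide enzymes are made, and then separates the chromosomes in mitosis, when cyclin B, centromere proteins, kinesins and the spindle checkpoint are at their peak. Many mitotic genes are controlled through a CHR element (cell cycle genes homology region) and CCAAT boxes in their promoters, and many replication genes through E2F sites.

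The promoters of genes that carry the cycling profile are shown first, since the same short elements recur in them. The stretches come from the RefSeq promoter windows of GRCm38.p6, which run from 250 bases before to 50 after a gene's start. Each is printed 5′ to 3′ on the gene's strand, from 5 bases before the first to 5 bases after the last element, and capitals mark TTTGAA (the CHR core) and CCAAT, each also as its reverse complement. Mki67 is a gene of the rule, and the others were among the 10 genes outside the rule with the smallest adjusted p-values for a higher level in cycling basal cells. The stretches lie at chr7:135716467-135716572 (Mki67, minus strand), chr5:30666772-30666912 (Cenpa, plus), chr4:124936890-124937007 (Cdca8, minus), chr15:99651641-99651673 (Racgap1, minus) and chr13:100786544-100786590 (Ccnb1, minus).
Mki67: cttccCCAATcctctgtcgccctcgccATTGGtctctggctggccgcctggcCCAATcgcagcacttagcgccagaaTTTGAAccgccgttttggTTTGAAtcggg
Cenpa: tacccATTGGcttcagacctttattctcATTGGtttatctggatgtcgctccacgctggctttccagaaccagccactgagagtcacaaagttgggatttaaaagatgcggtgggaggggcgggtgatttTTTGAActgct
Cdca8: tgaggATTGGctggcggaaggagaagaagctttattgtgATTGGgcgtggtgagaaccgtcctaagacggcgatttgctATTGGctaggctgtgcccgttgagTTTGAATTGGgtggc
Racgap1: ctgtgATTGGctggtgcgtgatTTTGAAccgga
Ccnb1: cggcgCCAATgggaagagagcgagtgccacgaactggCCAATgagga

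Of these 5 stretches, 4 hold both elements. In Cdca8 the last CCAAT box, on the reverse strand, overlaps the CHR core by 1 base. Ccnb1 has 2 CCAAT boxes and no TTTGAA in its window. The replication genes are shown beside them for the E2F motif TTTCGCGC, which 5 of 31 matched promoters of the S phase list held. Of these, Uhrf1 (chr17:56304108-56304155, plus strand), which maintains DNA methylation through replication, and Mcm5 (chr8:75109336-75109383, plus), a subunit of the replicative helicase, are printed with 20 bases on either side of the motif in capitals.
Uhrf1: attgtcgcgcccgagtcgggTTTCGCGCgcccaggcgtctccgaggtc
Mcm5: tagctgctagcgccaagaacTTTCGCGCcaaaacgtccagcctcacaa

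Cycling cells were a larger share of basal cells in diestrus than in puberty, and a larger share in puberty than in estrus. In diestrus 172 of 1021 basal cells were cycling (16.8%, exact 95% binomial interval 14.6 to 19.3%). In puberty 89 of 1053 were (8.45%, 6.84 to 10.3%), and in estrus 51 of 1283 were (3.98%, 2.97 to 5.19%). The 3 intervals did not overlap. They cover counting error only, not differences between mice or preparations.

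The order of the libraries was the same with the 10 genes read at equal depth and with 2, 3 or 4 genes asked for. With each cell thinned to 2000 counts, and shallower cells left out, the shares were 11.7% in diestrus (98 of 837 cells), 6.31% in puberty (51 of 808) and 2.46% in estrus (23 of 935). Thinning was applied to the 10 genes only, and the basal label still came from all counts of a cell. Mki67 alone, a nuclear protein of proliferating cells, was detected in 8.42%, 3.42% and 1.40% of diestrus, puberty and estrus basal cells. A cell was luminal when it had a count for at most 1 of the 7 basal genes of the rule. It also had counts for at least 3 of the 5 progenitor genes or at least 3 of the 6 mature luminal genes. Luminal progenitor and mature luminal cells were thus pooled. Luminal cells showed a smaller spread between libraries by the same 10 genes, with 90 of 956 cycling in diestrus (9.41%, 7.64 to 11.4%), 229 of 3343 in puberty (6.85%, 6.02 to 7.76%) and 72 of 1170 in estrus (6.15%, 4.85 to 7.69%). These luminal shares are without thinning. Without thinning the basal and luminal intervals were apart in diestrus, where the basal share was higher, and overlapped in puberty and estrus. With the 10 genes thinned to 2000 counts, 47 of 895 luminal cells were cycling in diestrus, 137 of 3177 in puberty and 46 of 1077 in estrus.

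**Figure D1:**
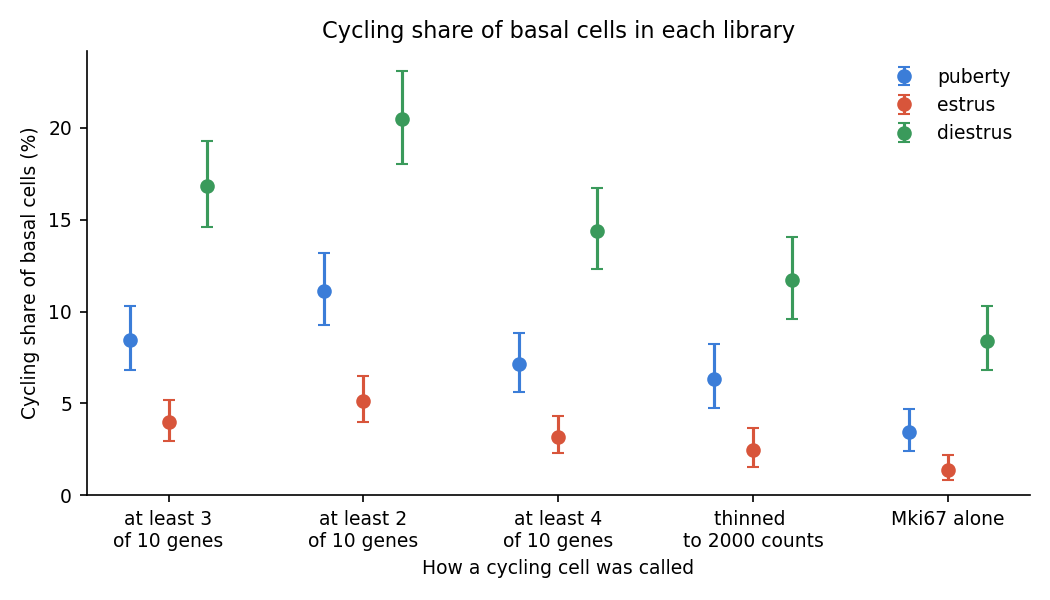
Share of basal cells called cycling (%) in the puberty, estrus and diestrus libraries under 5 ways of calling a cycling cell, with exact 95% binomial intervals as bars. Diestrus is the highest and estrus the lowest in each of the 5, at 16.8% and 3.98% with at least 3 of 10 genes.

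The basal label was checked on markers outside the rule. Krt14, a keratin of the basal layer, was found in 72 of the 89 cycling cells of puberty, 47 of the 51 of estrus and 169 of the 172 of diestrus. In the shallower non-cycling basal cells it was found in 819 of 883, 1127 of 1159 and 701 of 724. The share was lower in cycling than in non-cycling basal cells in puberty and estrus, and higher in diestrus. Of non-cycling luminal cells 93 of 2805, 60 of 1037 and 68 of 761 had it, and of cycling luminal cells 9 of 229, 10 of 72 and 10 of 90. The summed level of 20 luminal genes outside the rule was 1270 to 1684 CPM (counts scaled to a common library total) in the cycling cells, 1446 to 2550 in the non-cycling basal cells and 23978 to 37618 in non-cycling luminal cells. Ptprc, Cd52, Tyrobp, Lyz2 and Cd3e of the 7 immune genes and all 5 erythroid genes had 0 counts in the cycling cells of the 3 libraries. Emcn, Cldn5 and Tie1 of the 6 endothelial genes were also at 0, and the list summed to 17.3, 8.02 and 2.73 CPM (11, 4 and 4 counts) in the cycling cells of puberty, estrus and diestrus against 5.22, 3.8 and 5.68 CPM in non-cycling cells. Rgs5, Kcnj8 and Abcc9 of the 7 pericyte genes were at 0, and that list summed to 7.86, 14.0 and 15.0 CPM (5, 7 and 22 counts) against 11.6, 48.2 and 18.7 CPM. Cd74, an antigen presentation gene on the immune list, was found in 1 of 89, 5 of 51 and 41 of 172 cycling cells. The immune list summed to 1.57, 14.0 and 36.8 CPM in the cycling cells of puberty, estrus and diestrus. In the non-cycling cells it summed to 5.97, 7.89 and 31.7 CPM. The 6 fibroblast genes summed to 373, 497 and 181 CPM in the cycling cells of puberty, estrus and diestrus and to 224, 245 and 298 CPM in the non-cycling cells, with Col1a1 and Pdgfra at 0 in the cycling cells of puberty and estrus. Most of this was Dcn, a matrix proteoglycan, which was found in 56 of 89, 39 of 51 and 74 of 172 cycling cells and in 193 of 883, 205 of 1159 and 231 of 724 non-cycling cells. The part of these transcripts in the results was not tested.

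Cycling cells were also the deeper cells. Their median was 6732 counts in puberty, 10035 in estrus and 8656 in diestrus, which was 2.61, 4.12 and 3.05 times the median of non-cycling basal cells. A deep cell reaches 4 of 7 basal genes and 3 of 10 cycle genes at a lower CPM than a shallow one. The comparison of cycling with non-cycling basal cells was therefore repeated with 1 non-cycling cell of nearest total per cycling cell. The comparison with luminal cells and the stage ratios were not repeated in this way. These matched cells had medians of 6224, 7487 and 5957 counts, so the match was close in puberty and incomplete in the adults. Mitochondrial reads took 0.652 to 1.17% of counts in the median cycling cell and 0.718 to 1.18% in the median non-cycling cell. No doublet caller was run, and the limit on luminal genes removes cells with several of them.

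The genes of the rule are given as a description, since they chose the cells. In the cycling cells Ube2c, which marks mitotic proteins for destruction, was the highest of the 10 at 615, 580 and 824 CPM in puberty, estrus and diestrus. Cdk1, the mitotic kinase, followed at 317, 327 and 465 CPM. Mki67 was at 76.1, 36.3 and 86.2 CPM, the lowest of the 10 in estrus and diestrus. Mki67 was detected in 31, 17 and 78 of the cycling cells, and Top2a, which untangles replicated DNA, in 44, 25 and 110 of them. The basal genes of the rule were lower in cycling cells, with Acta2, smooth muscle actin, at 4862, 5835 and 7757 CPM against 14962, 16805 and 14606 CPM. Krt5 was at 236, 302 and 428 CPM against 532, 842 and 616 CPM. It had no count in 35 of 89, 6 of 51 and 18 of 172 cycling cells. Among non-cycling basal cells 321 of 883, 180 of 1159 and 161 of 724 lacked it. Krt17 was the exception in diestrus, at 3765 CPM in cycling and 3731 CPM in non-cycling cells.

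Around the threshold the cells formed a gradient. In puberty, estrus and diestrus 28, 15 and 37 basal cells had 2 of the 10 genes and fell just outside, and 14, 10 and 25 had 3 and fell just inside. The summed level of 42 mitosis genes outside the rule was 1744, 1720 and 1709 CPM in cells with 2 genes and 2525, 1839 and 2100 CPM in cells with 3. It went on to 5607, 7442 and 6951 CPM in cells with 7 to 10 genes. The summed level of 36 S phase genes took another course: 3837, 3663 and 3761 CPM with 2 genes, 4452, 3893 and 4758 CPM with 3, and 2651, 3140 and 3231 CPM with 7 to 10 genes. Cells with the most rule genes thus had the highest mitosis level and a lower S phase level than cells with 3 genes, in each library.

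**Figure D2:**
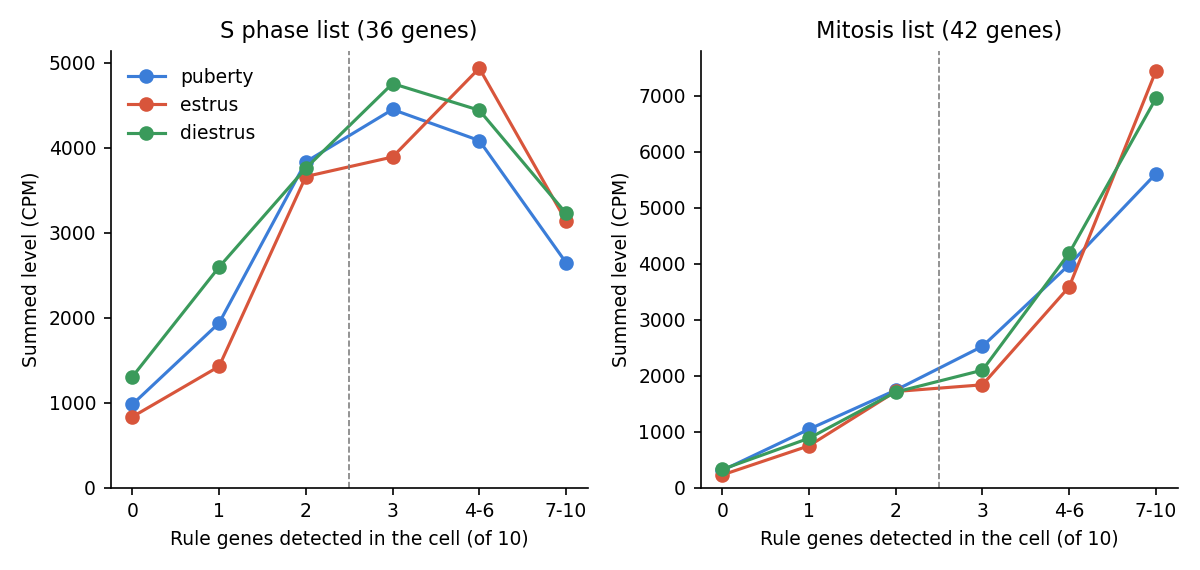
Summed CPM of the S phase list (left) and the mitosis list (right) in basal cells by the number of the 10 rule genes detected, 1 line per library. The dashed line is the threshold of 3 genes. The mitosis level climbs to 5607 to 7442 CPM with 7 to 10 genes, and the S phase level is lower there than with 3 genes in each library.

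Most cycling cells held transcripts of both phases. After thinning to 2000 counts, 78.7% of them in puberty, 78.0% in estrus and 83.3% in diestrus had at least 3 S phase genes, and 92.1%, 80.0% and 86.3% had at least 3 mitosis genes. Both were reached by 63 of 89, 31 of 50 and 119 of 168 cells. S phase genes without mitosis genes were found in 7, 8 and 21 cells and mitosis genes without S phase genes in 19, 9 and 26. The exact intervals of the 3 libraries overlapped for each of these measures. Non-cycling basal cells were not free of S phase transcripts: 89 of 643 in puberty (13.8%, 11.3 to 16.8%), 114 of 817 in estrus (14.0%, 11.6 to 16.5%) and 160 of 555 in diestrus (28.8%, 25.1 to 32.8%) had at least 3 S phase genes at 2000 counts. The same share in non-cycling luminal cells was 4.54%, 6.03% and 11.3%. Without thinning the shares were 20.6%, 26.6% and 39.4% in basal and 18.9%, 25.5% and 36.1% in the deeper luminal cells.

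Cycling and non-cycling basal cells were compared by summing counts per class in each library (3 sums against 3) and fitting edgeR's quasi-likelihood model with library as a block. Of 9506 genes tested outside the 28 genes of the rule, 1110 were higher (11.7%) and 1056 lower (11.1%) in cycling cells at an adjusted p-value under 0.05. The median log2 fold change over all of them was −0.06, and scaling by library size alone moved it to 0.05 and the split to 1459 higher and 906 lower. Against the depth-matched cells 433 of 6188 genes were higher (7.0%) and 357 lower (5.77%). Of the 2166 genes called against all non-cycling cells, 1809 could be tested there and 1797 had the same sign. The matched comparison held fewer cells and tested fewer genes. The counts of the gene lists below are to be read beside these shares of all genes. Library is the replicate here, and the 3 libraries also differ in stage.

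All 42 mitosis genes outside the rule were higher in cycling cells, with a median log2 fold change of 5.54, and 40 of the 40 tested were higher against the matched cells (median 4.96). They move with the 10 genes that chose the cells, so this is a description of the choice rather than separate support for it. Ccnb1, the cyclin that activates Cdk1 (chr13:100778650-100786570), was at 190, 249 and 279 CPM in the cycling cells of puberty, estrus and diestrus and at 1.64, 0.573 and 0.433 CPM in the non-cycling cells. The non-cycling values rest on 4, 2 and 1 counts. The fitted log2 fold change was 8.01 ± 0.32 (SE, edgeR adjusted p = 4.67e-09). Cenpa, the histone of the centromere (chr5:30666777-30674830), was at 455, 549 and 509 CPM against 15.2, 10.0 and 16.9 CPM.

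The other genes of the 10 highest ranked have roles at several steps of division. Ccna2 is the S phase and G2 cyclin, Cdca8 and Aurkb belong to the chromosomal passenger complex, Cenpe is a kinetochore motor, Spc24 is a kinetochore protein, Racgap1 acts in cytokinesis and Cdca3 is a trigger of mitotic entry. Their log2 fold changes ran from 4.43 (Spc24) to 7.93 (Ccna2). Hmgb2, a chromatin protein abundant in dividing cells, had the smallest of the 10 at 3.04 ± 0.15, from 159, 165 and 229 CPM to 1437, 1374 and 1687 CPM. All 10 passed the test against the matched cells as well, with log2 fold changes of 2.86 (Hmgb2) to 7.68 (Ccnb1).

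S phase genes rose less. Of 36, 33 were higher and none lower (median 2.02), and against the matched cells 22 of 31 were higher (median 1.24). Tk1, thymidine kinase, was at 146, 198 and 219 CPM in cycling cells and at 7.79, 2.58 and 11.3 CPM in non-cycling cells. Rrm2, the regulated subunit of ribonucleotide reductase, was at 393, 382 and 336 CPM against 37.7, 8.88 and 30.7 CPM. The helicase subunits Mcm2, Mcm3, Mcm4, Mcm5, Mcm6 and Mcm7 were all among the 33. Chromatin and tubulin genes of dividing cells were higher in 20 of 21 cases, against all and against matched cells alike. Among them Stmn1, which destabilizes microtubules, was at 982, 1506 and 643 CPM against 201, 186 and 108 CPM.

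**Figure D3:**
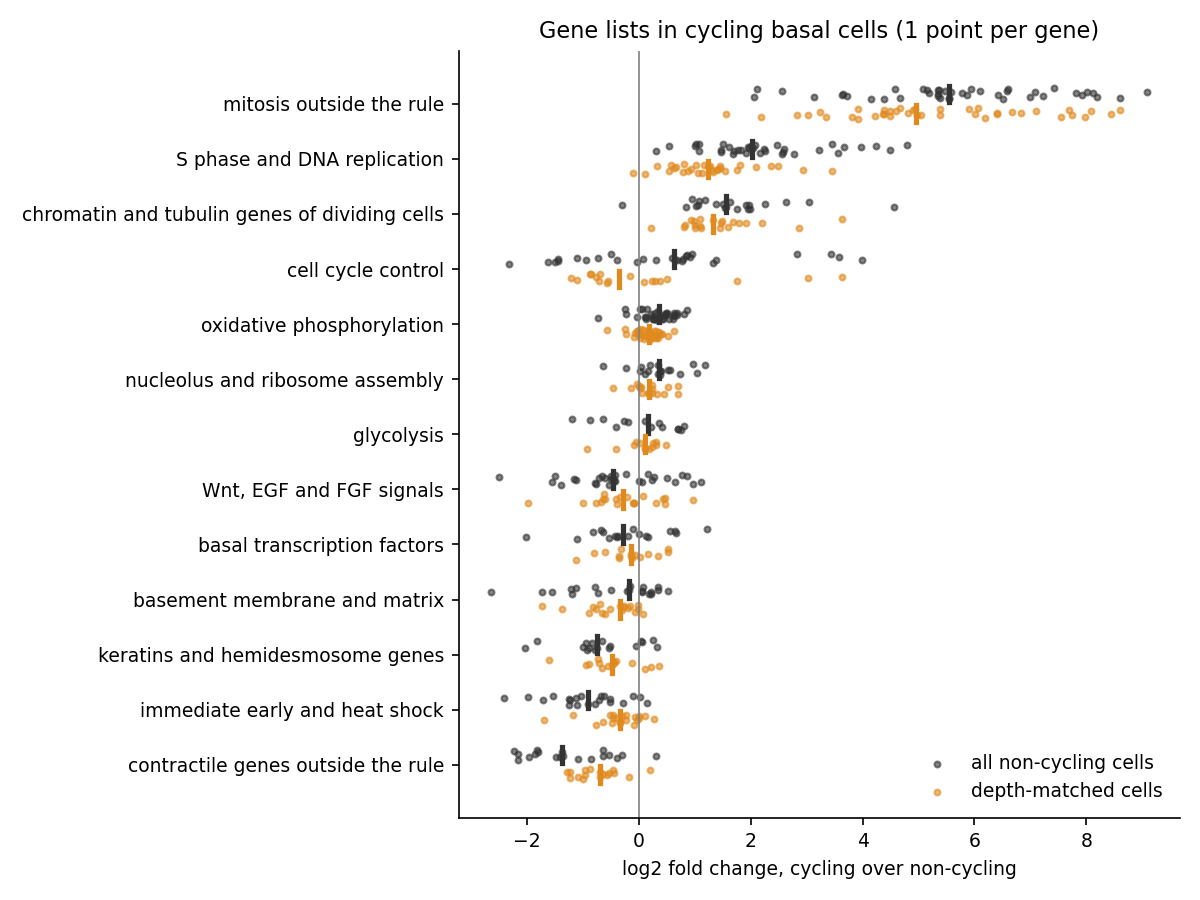
log2 fold change of each list gene between cycling and non-cycling basal cells, against all non-cycling cells (dark) and against depth-matched cells (orange), with a bar at each median. The mitosis median is 5.54 and 4.96, the S phase median 2.02 and 1.24, and the contractile median −1.38 and −0.69 in the 2 comparisons.

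Regulators of the cell cycle went in both directions. Of 28 tested, 9 were higher (Cdkn2c, Mybl2, Foxm1, Cdk4, Ccnd1, E2f8, Ccnd2, Ccnd3 and Cdkn2d) and 8 lower (Gadd45a, Gadd45b, Gadd45g, Myc, Cdkn1a, Btg1, Btg2 and Mdm2). Against the matched cells 3 of 18 were higher and 7 lower. Cdkn2c, an inhibitor of Cdk4 and Cdk6 (p18INK4c, chr4:109660876-109667189), was the called regulator with the smallest adjusted p-value. It was at 97.4, 76.3 and 114 CPM in the cycling cells and at 3.69, 9.17 and 10.8 CPM in the non-cycling cells (log2 fold change 3.59 ± 0.28, edgeR adjusted p = 1.02e-06, matched 3.64). Foxm1, the transcription factor that binds mitotic promoters, was at 7.61, 14.5 and 14.7 CPM against 0.820, 0.860 and 0.433 CPM. Myc was lower, at 70.0, 204 and 145 CPM against 261, 579 and 337 CPM. Cdkn1a (p21), the p53 target that arrests the cycle, was at 143, 173 and 154 CPM against 491, 608 and 267 CPM. For Ccnd1 and Cdk4 the difference did not pass against the matched cells, with log2 fold changes of 0.24 and 0.29.

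Most contractile genes were lower. Of 19 tested outside the rule 15 were lower and none higher (median −1.38), and against the matched cells 10 of 17 were lower (median −0.69). Tpm4, a tropomyosin, was among those that did not pass, with a log2 fold change of 0.30 ± 0.15. Myh11, smooth muscle myosin, was at 119, 154 and 177 CPM in cycling cells of puberty, estrus and diestrus against 597, 625 and 413 CPM. Lmod1, which nucleates actin filaments in smooth muscle, was at 13.7, 38.2 and 56.1 CPM against 99.6, 255 and 174 CPM. Oxtr, the oxytocin receptor through which suckling triggers contraction, was at 22.8, 60.0 and 67.3 CPM against 90.6, 325 and 170 CPM. For Myh11 the log2 fold change was −1.83 ± 0.20 (edgeR adjusted p = 2.24e-05) and −1.23 against the matched cells.

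Keratin and adhesion genes were lower in part. Of 17 tested, 9 were lower and none higher, and 5 of 15 were lower against the matched cells. Without the puberty library 4 of 16 were lower and 1 higher, and without estrus 5 of 17 were lower. Krt14, the partner of Krt5 (chr11:100203162-100207548), was at 1152, 1988 and 2748 CPM in cycling cells and at 6808, 8197 and 4965 CPM in non-cycling cells. Its difference was −2.56 in puberty, −2.04 in estrus and −0.85 in diestrus on the log2 scale, and against the matched cells the fitted value was −0.94. Dst, which links keratin to the hemidesmosome, was at 41.1, 47.2 and 44.2 CPM against 179, 293 and 124 CPM. The integrins Itga6 and Itgb1, the cadherin Cdh3 and the hemidesmosome collagen Col17a1 were also lower. Itgb4, with a log2 fold change of 0.06 ± 0.35, did not pass.

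The transcription factors of the basal lineage mostly did not pass the test. Of 18, 4 were lower (Sox4, Id3, Egr2 and Sox9) and none higher, beside 11.1% lower and 11.7% higher of all genes. Against the matched cells 2 of 15 were lower, Sox4 and Id3, beside 5.77% of all genes. Without the puberty library 2 were lower, without estrus 3 and without diestrus 6. Trp63, the p63 factor that maintains basal identity, was at 73.1, 74.5 and 72.2 CPM in cycling cells and at 75.8, 82.8 and 77.0 CPM in non-cycling cells. Its log2 fold change was −0.10 ± 0.18. Among 7 tested genes used as labels of basal stem or progenitor cells, Tspan8, Lgr5 and Dll1 were lower and none higher, beside 11.1% lower of all genes. Lgr5, a Wnt pathway receptor, was at 3.04, 1.82 and 4.21 CPM against 16.4, 28.7 and 13.0 CPM, and Tspan8 at 0, 1.82 and 4.91 CPM against 15.6, 25.5 and 50.6 CPM. The cycling levels of Lgr5 and Tspan8 rest on few counts, and 1.82 CPM in estrus is 1 count. Both genes were too low for the matched comparison, which tested 2 genes of the list. There Dll1, a Notch ligand, remained lower (log2 fold change −0.95). Procr, Lgr6, Axin2 and Bcl11b did not pass, with log2 fold changes of −0.69, 0.32, 0.52 and 0.97.

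**Figure D4:**
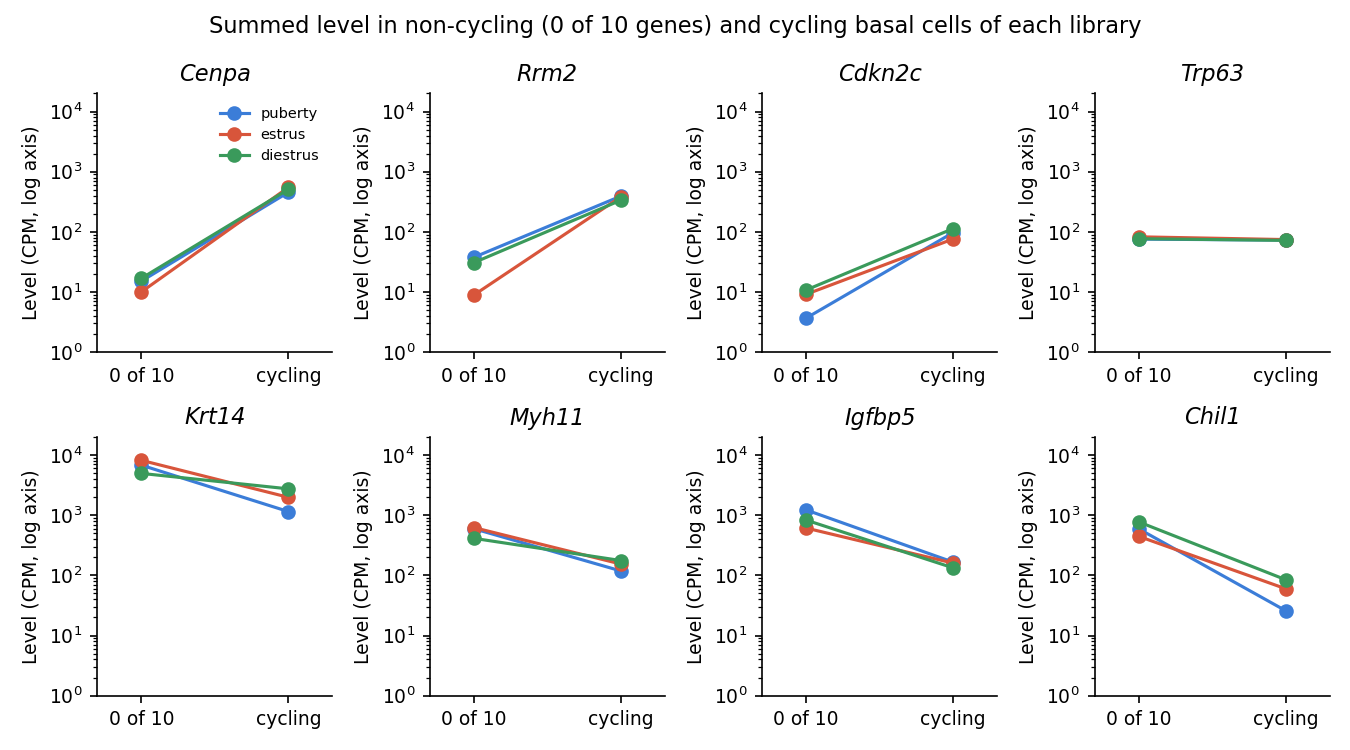
Level (CPM of summed counts, log axis) of 8 genes in non-cycling (0 of 10 genes) and cycling basal cells, 1 line per library. Cenpa, Rrm2 and Cdkn2c are higher in the cycling cells of each library, Krt14, Myh11, Igfbp5 and Chil1 lower, and Trp63 lies between 72.2 and 82.8 CPM in all 6 sums.

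The 10 lower genes with the smallest adjusted p-values were Chil1, Tsc22d1, Igfbp5, Hspa1a, Mmp2, Tcp11l2, Malat1, Ctsl, Rasl11a and Cxcl14. Chil1, a secreted chitinase-like protein (chr1:134182176-134190181), was at 25.9, 60.0 and 84.8 CPM in cycling cells and at 595, 447 and 776 CPM in non-cycling cells (log2 fold change −3.44 ± 0.24, edgeR adjusted p = 4.06e-07). Igfbp5, which binds insulin-like growth factors (chr1:72857932-72874884), was at 166, 160 and 133 CPM against 1225, 612 and 830 CPM. Mmp2, a matrix metalloproteinase, was at 6.09, 14.5 and 8.41 CPM against 105, 117 and 85.3 CPM. Against the matched cells these 3 had log2 fold changes of −1.99, −1.98 and −2.54 and passed. Rasl11a was the member of the 10 that did not pass there, moving from −2.70 to −0.69 (edgeR adjusted p = 0.209).

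Of 21 matrix genes 7 were lower, among them Postn, Thbs1, Sparc and Cxcl14, beside 11.1% of all genes. Col18a1 alone was higher, beside 11.7% of all genes. No matrix gene was higher with DESeq2, without the puberty library or without the estrus library. Against the matched cells 5 of 19 were lower and none higher. Postn, periostin, was at 65.5, 70.9 and 168 CPM against 668, 851 and 429 CPM. Of 30 genes of the Wnt, EGF, FGF and related pathways 4 were higher (Wnt6, Nrg1, Bmp7 and Igfbp2) and 6 lower (Igfbp5, Dkk3, Fgfr1, Fzd7, Sfrp1 and Egfr), beside 11.7% and 11.1% of all genes. Without the estrus library 1 was higher and 4 lower, without puberty 3 and 4, and without diestrus 5 and 9 of 29. Wnt6, a Wnt ligand, was at 158, 147 and 149 CPM in cycling cells against 72.5, 65.9 and 72.3 CPM. Against the matched cells none of the 20 tested was higher, with Wnt6 at 0.47, and 2 were lower, Igfbp5 and Fgfr1.

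Of 21 stress and early response genes tested, 15 were lower and none higher against all non-cycling cells. Against the matched cells 3 were lower (Hspa1a, Hspb1 and Jund), and with all cells but no library block 3 were lower as well. Fos, an early response factor, had a log2 fold change of −1.24 ± 0.17 against all and −0.00 against the matched cells. Hspa1a, the inducible Hsp70, was at 39.6, 164 and 59.6 CPM against 311, 730 and 288 CPM, and −1.71 on the log2 scale in the matched comparison. Among genes of metabolism and growth 12 of 36 oxidative phosphorylation genes were higher (median 0.35), as were 6 of 18 nucleolar genes (median 0.35) and 4 of 14 glycolysis genes (median 0.16). Against the matched cells these counts were 3 of 36, 1 of 17 and 2 of 13, beside 7.0% of all genes. The 12 oxidative phosphorylation genes became 5 without estrus, 7 without puberty and 15 without diestrus, and 1 with no library block. The higher glycolysis genes were Gapdh, Tpi1, Pgam1 and Pgk1, while Aldoa was lower, at 527, 478 and 410 CPM against 980, 779 and 838 CPM.

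The elements shown above were then counted in the promoters of all tested genes. TTTGAA was found on either strand in 19.4% of 1053 promoters of higher genes, 10.7% of 1089 promoters of lower genes and 11.7% of 9443 promoters of all genes tested. In the whole table of 32851 promoters the share was 17.9%. CCAAT was found in 48.2%, 35.0% and 37.6%, and TTTCGCGC in 1.90%, 0.275% and 0.688%. Of 37 promoters of the mitosis list, 29 held TTTGAA (78.4%), 29 held CCAAT, 25 held both and none held TTTCGCGC. Of 31 promoters of the S phase list, 3 held TTTGAA (9.68%), 18 held CCAAT (58.1%) and 5 held TTTCGCGC (16.1%). These are matches of letters in a window, given with no test.

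The difference between cycling and non-cycling cells was next compared between basal and luminal cells, with luminal cells of the same libraries and an interaction term over 12 sums. The luminal class pooled progenitor and mature cells, and the part of their mix in the results was not tested. Non-cycling luminal cells were deeper, with medians of 4419, 3888 and 4221 counts in puberty, estrus and diestrus. The medians of non-cycling basal cells were 2579, 2436 and 2836 counts. No depth-matched cells were used here. Of 10867 genes tested outside the rule, 13 had a more positive difference in basal cells (0.120%) and 58 a more negative one (0.534%) at an adjusted p-value under 0.05. No mitosis gene of the 42 was among them, and their median difference between basal and luminal cells was −0.18, against −0.10 for all genes. The calls rested on few libraries: without the estrus library 2 genes passed, without puberty 8 and without diestrus 121.

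Of the 36 S phase genes 6 (Pcna, Rrm2, Slbp, Dut, Ccne1 and Tipin) had a smaller rise in basal than in luminal cells (median of the list −1.0 on the log2 scale). Pcna, the replication clamp, averaged 206 CPM in cycling basal and 235 CPM in cycling luminal cells, and 103 CPM in non-cycling basal against 56.3 CPM in non-cycling luminal cells. Ccne1, cyclin E1, averaged 44.6 CPM and 32.6 CPM in cycling and 17.4 CPM and 1.79 CPM in non-cycling basal and luminal cells. The levels in non-cycling basal cells were above those in non-cycling luminal cells for all 6. Slpi, a secreted protease inhibitor, moved in opposite directions: it was at 191, 526 and 818 CPM in cycling and 5507, 6295 and 3687 CPM in non-cycling basal cells, but at 3730, 2736 and 1536 CPM in cycling and 1094, 630 and 561 CPM in non-cycling luminal cells of puberty, estrus and diestrus. Cdkn2c rose more in basal cells, from an average of 7.74 to 89.3 CPM, than in luminal cells, from 20.7 to 55.7 CPM.

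Within cycling basal cells the stages were set side by side as log2 ratios of CPM with 10 CPM added, with no test. Of 1788 genes at 100 CPM or more in estrus or diestrus, 158 were over 2-fold higher in diestrus (8.84%) and 20 over 2-fold lower (1.12%). For 131 of the 158 the ratio was also over 2-fold in non-cycling basal cells. Of the oxidative phosphorylation genes 21 of 36 were over 2-fold higher in diestrus (median 1.06), 20 of these also in non-cycling cells (median of the list 1.35). Neither the 13 S phase genes nor the 19 mitosis genes at that level differed by over 2-fold.

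The 5 highest ratios were those of Rps26-ps1, Rps27rt, Wdr89, Rps26 and Lgals1. The part of read assignment among similar sequences was not tested. Rps26, Rps26-ps1, Rps27rt and Wdr89 had log2 ratios of diestrus to estrus of 2.89, 4.12, 3.83 and 3.19 in cycling and 2.64, 3.22, 3.84 and 3.36 in non-cycling cells. Lgals1, a galactose-binding lectin, was at 1608 CPM in diestrus and 209 CPM in estrus cycling cells, a log2 ratio of 2.89 against 1.23 in non-cycling cells. The 5 lowest ratios were those of Ccdc85b, Gm10116, Pgk1, Gm10020 and Gstp1 (−3.40 to −2.10), and in non-cycling cells these ran from −4.06 to −1.83.

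**Figure D5:**
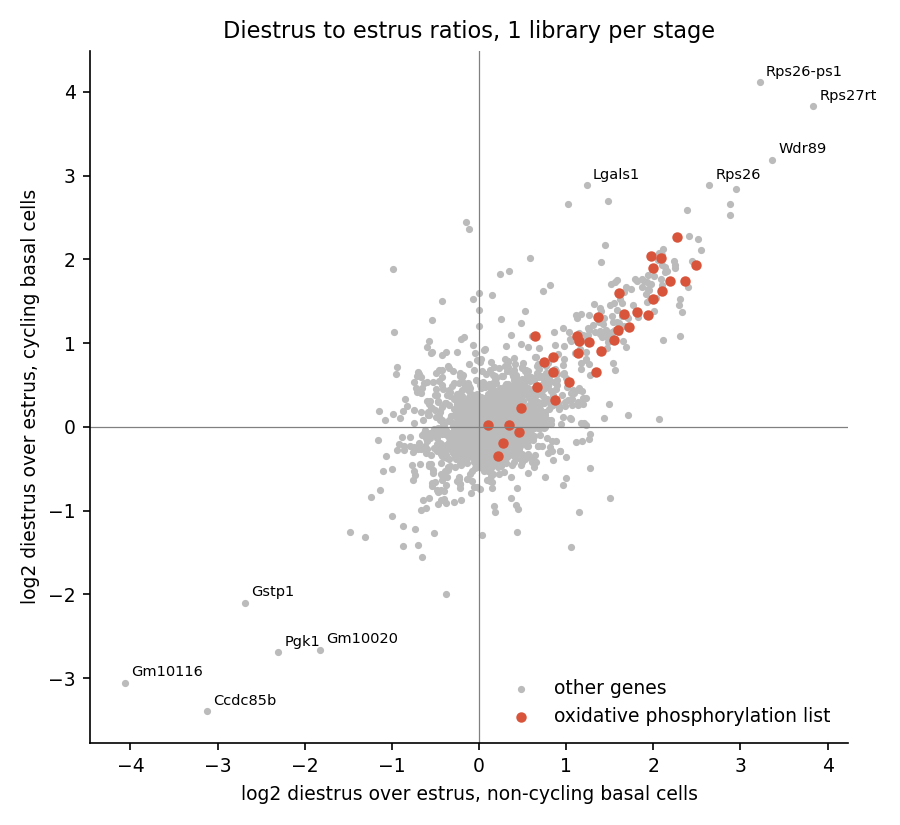
log2 ratio of diestrus to estrus for 1788 genes in non-cycling (x) and cycling (y) basal cells, 1 library per stage, with the oxidative phosphorylation list in red and the 10 named genes labelled. The red points have a median of 1.06 in cycling and 1.35 in non-cycling cells, and Lgals1 lies at 2.89 and 1.23.

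Puberty was set against the mean of the adult libraries in the same way. Of 1878 genes 29 were over 2-fold higher (1.54%) and 57 over 2-fold lower (3.04%) in puberty. Csn3, kappa-casein, was at 414 CPM in cycling cells of puberty, 61.8 CPM in estrus and 14.7 CPM in diestrus, and non-cycling cells had a similar ratio (3.14 and 3.66 on the log2 scale). Hist1h2ap, a replication-dependent histone, was at 388, 80.0 and 4.21 CPM in cycling cells and at 9.02, 0 and 0 CPM in non-cycling cells. Serpine2, a protease inhibitor, was at 178, 38.2 and 16.8 CPM, a log2 ratio of 2.33 against 0.97 in non-cycling cells. Srxn1 and Gm10076 completed the 5 highest at 2.58 and 2.18.

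Id1, an inhibitor of differentiation, was at 6.09 CPM (4 counts) in cycling cells of puberty, 30.9 CPM in estrus and 114 CPM in diestrus, and at 40.2, 75.9 and 76.2 CPM in non-cycling cells. Tppp3, a tubulin-binding protein, was at 18.3, 43.6 and 189 CPM in cycling and 156, 273 and 133 CPM in non-cycling cells. Socs3, Zfp36 and Bhlhe40 had log2 ratios of −2.34, −2.31 and −2.21, and of −1.25, −1.90 and −1.35 in non-cycling cells. Of 21 immediate early and heat shock genes 9 were over 2-fold lower in puberty, and 8 of these also in non-cycling cells.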

How the data were processed

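Single-cell libraries were made on the 10x Genomics Chromium platform and sequenced on a NextSeq 500. The authors deposited raw counts of molecules per gene and cell barcode, made with Cell Ranger 2.0 on mm10 per the labels, without normalization. All barcodes of the deposited tables were used, and no doublet caller was run. The first puberty table held 5428, of which 5387 were also in the second, the number of pubertal cells in the study's list of samples. Counts were summed per class and library and tested with edgeR 4.0.16 in R 4.3.3 (TMM, filterByExpr, library block, quasi-likelihood test, Benjamini-Hochberg adjustment over all genes), with DESeq2 1.42.0 as an alternative. CPM values are scaled by TMM library sizes, except for summed lists, which used plain totals. Standard errors came from the F statistic. Genes were named by a rule: outside the 28 genes of the rule, the 10 smallest adjusted p-values per direction (5 for the interaction) that changed at least 2-fold, in 1 direction in 3 of 3 libraries, the 5 largest stage ratios per direction, and up to 4 members of each of 21 gene lists by p, with further list members named after their values were seen. Members and lists were chosen with earlier results of these data known. Gene positions came from GENCODE M21 (GRCm38). Promoter windows matched 7324 of 9506 tested genes. The fit was tested on simulated data.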

Additional observations from a re-analysis of the deposited data

Results flagged for a closer look

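Of the 71 genes called in the test of the difference between basal and luminal cells, the 10 named by rank and the other called members of the gene lists are given here as the log2 difference in basal cells minus that in luminal cells. More positive in basal cells were Gpx3 (2.18), Cdkn2c (2.14), Slc25a10 (2.06), Ormdl2 (1.77) and Ptn (1.63). From non-cycling to cycling cells Gpx3 averaged 13.0 and 15.5 CPM in basal cells but fell from 1952 to 625 CPM in luminal cells. Ptn went from 729 to 1099 CPM in basal and from 8224 to 4044 CPM in luminal cells. Slc25a10 went from 6.81 to 41.7 CPM and from 53.1 to 78.7 CPM. Ormdl2 went from 11.5 to 37.1 CPM and from 176 to 168 CPM. More negative were Slpi (−5.03), Gpsm2 (−3.89), Rgs10 (−3.33), Sat1 (−2.56) and Bok (−2.26). Among the list genes, S phase and chromatin genes were more negative, at −2.79 for Ccne1, −2.22 for Rrm2, −1.12 for Slbp, −1.07 for Pcna, −1.04 for Dut and −1.01 for Tipin, and at −1.70 for Stmn1, −1.30 for H2afx and −1.02 for H2afz. Mybl2 was at −3.37. The contractile genes were at −2.22 for Smtn, −1.81 for Flna and −1.56 for Ppp1r12a. Dst was at −1.53, Krt18 at −1.30 and Hsp90aa1 at −1.13.

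The second puberty table, which was used only as an alternative to the first, held all 89 cycling basal barcodes of the first, and 79 of them had at least 3 of the 10 genes there too. Of the 89, 73 met both the basal and the cycling rule there. Of 872 non-cycling basal barcodes found in it none had 3 or more of the 10 genes.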

How the results depend on the processing

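The 20 named genes of the comparison of cycling with non-cycling basal cells kept their direction and passed the threshold in 319 of 320 values over the alternatives, and Rasl11a against depth-matched cells was the exception. The number of genes called did move: DESeq2 gave 1317 (730 higher, 587 lower), no library block 1018 (538 and 480), and depth-matched cells 790 (433 and 357). Leaving out 1 library gave 1222 to 2084 genes, 613 to 1032 higher and 609 to 1052 lower, with the lowest values without estrus. With no filter on low counts 1125 genes were higher and 1397 lower. The basal against luminal difference was less stable, with 71 genes called in all. DESeq2 gave 133 (48 more positive), library size without TMM 21 more positive, no filter 342 (159 and 183), and no library block 2 (1 and 1). Leaving out 1 library gave 2 to 121 genes, 0 to 18 more positive and 2 to 103 more negative, and 21 of 90 values of its 10 named genes no longer passed. The cause of these shifts was not tested. Cycling shares of puberty, estrus and diestrus moved to 11.1, 5.14 and 20.5% with 2 genes, to 7.12, 3.20 and 14.4% with 4, to 6.31, 2.46 and 11.7% after thinning and to 3.42, 1.40 and 8.42% with Mki67 alone. Without thinning 93.3, 96.1 and 97.7% of cycling cells had S phase genes and 100, 100 and 99.4% mitosis genes. Without TMM 42 genes were over 2-fold lower in diestrus than in estrus. Among genes at least 2-fold higher, 25.4% of promoters held TTTGAA. No named gene or stage ratio reversed, but against matched cells 1797 of 1809 called genes kept their sign, and the median of the cell cycle control list went from 0.62 to −0.36. Each stage had 1 library, so counting intervals do not cover differences between mice, and the depth of 51 to 172 cells per sum limits genes of low level.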
